A study of Mus musculus with 12 samples.

Results

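The hnRNP, SR and FET genes encode abundant nuclear RNA-binding proteins that decide how pre-mRNA is spliced, packaged and exported. A set of 39 of them was followed here in Neuro-2a, a cell line from a mouse neuroblastoma, across 12 RNA-seq libraries. The genes were listed by family: 26 hnRNP, PCBP, PTB and Raly genes, 10 SR protein genes, and Ewsr1, Taf15 and Tardbp. The list was made with earlier results of these data known. All 39 were found among the 55401 gene rows of the count files, and all 39 passed the filter on low counts that left 17569 genes for testing. Wells were transfected with 1 µg of a GFP plasmid (pCAGGs-linkB-IRES-GFP) and 3 µg of plasmid carrying artificial microRNAs built on miR30. The latter held a scramble (miScramble), a pool of 3 against Rbmx (miRbmx), or a pool of 2 against Rbmxl1 (miRbmxl1). Cells positive for GFP were sorted 48 hours later and their ribosome-depleted RNA was sequenced. Each group has 4 libraries with replicate numbers 1 to 4, called biological replicates by the labels, which do not say what a number stands for. Every group, the control included, thus carries both a GFP plasmid and a microRNA plasmid, and the cells are 1 established line in a transient transfection. If replicates were not separate cultures, the p-values measure technical spread only.

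HnRNP proteins coat nascent transcripts and often repress the use of nearby exons, whereas SR proteins bind exons through an RNA recognition motif and recruit the splicing machinery through a tail rich in arginine and serine. The targeted gene Rbmx itself encodes an hnRNP, hnRNP G, and Rbmxl1 is its autosomal retrocopy. The FET proteins EWSR1 and TAF15 and TDP-43, the product of Tardbp, bind RNA and DNA and are known from neurodegeneration and, for EWSR1, from sarcoma fusions. Many SR and hnRNP genes carry an alternative exon with an early stop codon, a "poison" exon, and transcripts that include it are degraded by nonsense-mediated decay, which lets the proteins adjust their own level.

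Exons of that kind are shown for the 4 SR genes called in the Rbmx knockdown that have one in the annotation, because gene-level counts add reads from coding and decay transcripts. Each stretch below is the coding part of a decay-transcript exon that overlaps no exon of the gene's protein-coding transcripts in GENCODE M21 (GRCm38). Transcripts of other classes, such as retained introns, were not checked for these exons. Stretches run 5′ to 3′, with the in-frame stop codon in capitals.
Srsf3, chr17:29039454-29039487, plus strand: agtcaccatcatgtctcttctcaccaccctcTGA
Srsf7, chr17:80205054-80205081, minus strand: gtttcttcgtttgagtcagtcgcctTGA
Srsf9, chr5:115328347-115328428, plus strand: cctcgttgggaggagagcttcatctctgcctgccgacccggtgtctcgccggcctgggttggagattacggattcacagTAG
Srsf11, chr3:158023310-158023359, minus strand: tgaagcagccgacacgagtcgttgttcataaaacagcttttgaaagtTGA
Srsf11, chr3:158024209-158024231, minus strand: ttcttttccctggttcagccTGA

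In all, 7 of the 39 genes have such an exon (8 exons, with Hnrnpl, Hnrnpll and Srsf4 besides those shown). A wider class of genes has an annotated decay transcript of any form: 23 of the 39 genes (59%), against 28.4% of the 12720 protein-coding genes tested. It held for 9 of the 10 SR genes. The members also have more annotated transcripts, 10 in median against 5 for protein-coding genes, and more transcripts give more chances of a decay form. The files give 1 count per gene, so the use of these exons was not analysed here.

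CPM below are read counts scaled to the size of each library. Reads assigned to genes ranged from 43.1 to 52.2 M per library, and the 39 genes took from 0.861% to 1.10% of them. In its own knockdown Rbmx fell by 59.4%, a log2 fold change of −1.30 ± 0.08 (adjusted p = 2.115e-07), where ± is the SE here and for every log2 fold change below. Rbmxl1 fell likewise in the libraries targeted against it, with −1.27 ± 0.09 (adjusted p = 3.206e-06), so both labels were met. For Rbmxl1, 78.98% of the 50-base words of the longest transcript also occur in other genes, so its count rests on the rest, while the share is 0.98% for Rbmx. Rbmx was higher in the Rbmxl1 knockdown, by 0.36 ± 0.07 (adjusted p = 0.0165), a call that was lost without the replicate block described below (adjusted p = 0.444). Of 12 neuroblastoma markers, 11 were above 1 CPM in median, with summed levels of 1679 to 2121 CPM in miScramble, 1744 to 2090 in miRbmx and 1727 to 2096 in miRbmxl1. Nefm was at 0 in 9 libraries. Of 5 markers of other cell types, only Pecam1 was above 1 CPM (4.75 to 7.83), Ptprc was at 0 in 11 libraries and Epcam in all 12. The summed level of these 5 was 5.05 to 6.28 CPM in miScramble, 5.60 to 7.80 in miRbmx and 5.198 to 8.17 in miRbmxl1, and its part in the results was not tested.

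Levels between genes are compared as CPM per kilobase of annotated exon, written RPKM, with mean ± SD over the 4 scramble libraries. The highest members were Pcbp2 at 210 ± 8.49, Pcbp1 at 209.9 ± 9.56 and Hnrnpa1 at 199 ± 8.60. The PCBP proteins bind runs of C in messenger RNA, and hnRNP A1 is a classic splicing repressor. Their ranges overlapped (201 to 219.6, 198 to 219 and 191 to 210.4), so these 3 cannot be ordered. Next came Srsf2 (117 ± 29.1) and Ptbp1 (111 ± 13.0), the second being the polypyrimidine tract protein of dividing cells. Every scramble library had all of the first 3 above Srsf2, whose own range was wide, at 92.0 to 156.

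The lowest members were Hnrnph3 (5.69 ± 1.08), Hnrnpll (6.73 ± 0.574), Ptbp2 (7.60 ± 0.753), Hnrnpr (8.51 ± 0.480) and Hnrnpm (10.5 ± 1.21). Ptbp2 is the neuronal paralog of Ptbp1. The highest mean was 36.9 times the lowest. Among the 38 neighbouring pairs in the order of levels, the ranges of the scramble libraries were separate in only 5, so most neighbours could not be told apart. The SR genes ran from 14.5 ± 3.46 for Srsf11 to the value of Srsf2 above, and Ewsr1, Taf15 and Tardbp had 52.9 ± 4.89, 33.5 ± 1.42 and 30.6 ± 3.16. Reads with several alignments were not counted to genes, which lowers members with near copies elsewhere. In 18 of the 39 genes, at least 10% of the 50-base words of the longest transcript also occur in a transcript of another gene. Among them are Hnrnpf (67.3%), Pcbp2 (53.0%) and Srsf2 (35.2%). Words were matched on either strand, so a gene that overlaps at the same place counts too, without being a near copy elsewhere. Exons of these 3 overlap opposite-strand genes over 26.45%, 32.7% and 25.3% of their length. Exons of 16 members overlap a gene on the opposite strand, and the strand setting of the counting is not given in the sources used here. The plot of levels shows each member in every group.

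**Figure D1:**
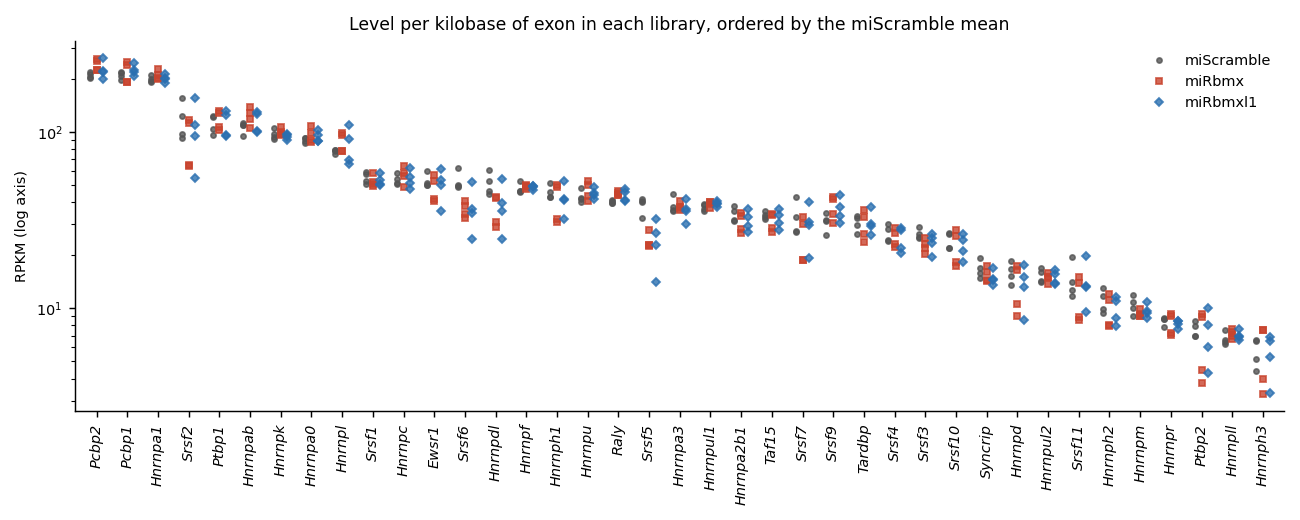
Level of each of the 39 genes per kilobase of exon (RPKM, log axis), 1 point per library in the 3 groups of 4, ordered by the miScramble mean. Pcbp2, Pcbp1 and Hnrnpa1 stand at the top near 200, Hnrnph3 at the bottom at 5.69, and the groups lie close together for most genes.

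In the Rbmx knockdown, the SR genes carried most of the changes among the 39. Of 10 SR genes, 7 passed the test, 6 of them lower than scramble and Srsf9 higher, and of the 26 hnRNP, PCBP, PTB and Raly genes only Hnrnpdl passed, lower. None of Ewsr1, Taf15 and Tardbp passed. That is 8 of 39 genes (20.5%), with the replicate number as a block, where 8.35% of all genes tested were called, 4.19% lower and 4.16% higher. Because the list was made with earlier results known, these counts are a description of its members. The median log2 fold change was −0.07 over the members, −0.28 over the SR genes, 0.04 over the 26 hnRNP-type genes and 0 over all genes.

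These calls rest on the block. Without it, edgeR called 0 of the 39 genes in either knockdown and 1 gene in all in each (0.00569%). At an unadjusted p under 0.05 it had 5 members in the Rbmx knockdown (12.8%, against 10.9% of all genes): Srsf5, Srsf6, Hnrnpdl, Srsf3 and Raly. DESeq2 with the replicate number called 10 members, 7 of them among the 8, and 2013 genes in all, against 1467 with edgeR. Leaving out 1 library or 1 replicate number at a time left between 3 and 12 members called, with 146 to 1904 genes called in all, and Srsf5, Srsf6 and Hnrnpdl were called each time. In bulk RNA, a small drop in all cells and a large drop in some cells cannot be told apart.

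**Figure D2:**
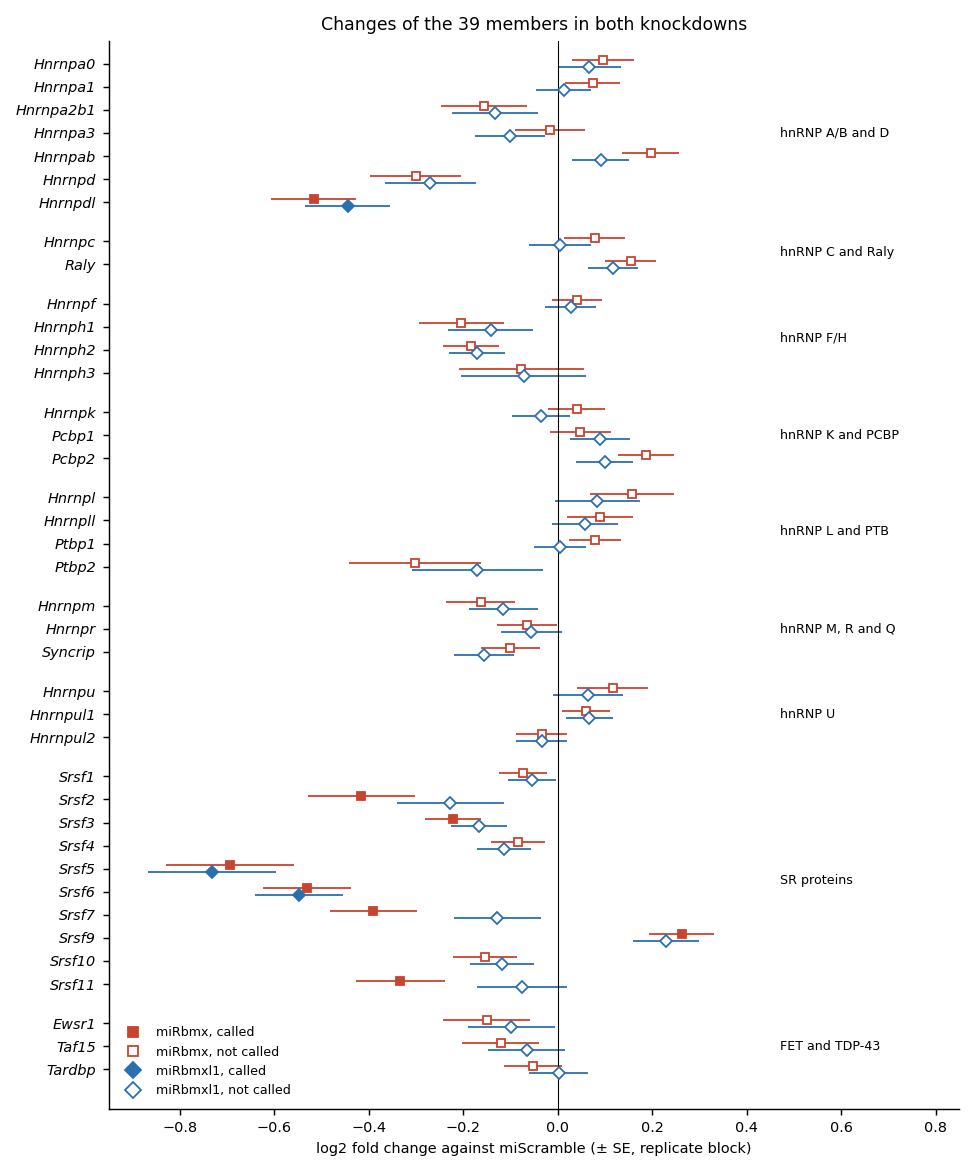
Log2 fold change with bars of 1 SE of the 39 genes in each knockdown against miScramble (edgeR with the replicate number as a block), grouped by family, with filled symbols for called genes. Srsf5, Srsf6 and Hnrnpdl are the lowest points in both knockdowns, and most other members lie near 0.

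Srsf5 (chr12:80945504-80950507, GRCm38), an SR protein that binds exonic enhancers, had the largest change of any member. Its level was 161, 163, 165 and 130.1 CPM in scramble replicates 1 to 4, 90.9, 111, 91.5 and 89.7 in the Rbmx knockdown and 56.4, 106, 127 and 91.5 in the Rbmxl1 knockdown. All 8 knockdown libraries were below all 4 scramble libraries. The log2 fold change was −0.69 ± 0.14 (adjusted p = 0.00952) in the Rbmx knockdown, so it fell by 38.2%. In the Rbmxl1 knockdown it fell by 39.8%, or −0.73 ± 0.14 (adjusted p = 0.0108), with the lowest library, replicate 1, far under the others. Of the 50-base words of the longest Srsf5 transcript, 11.2% also occur in other genes.

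Srsf6 (chr2:162931528-162937121) encodes an SR protein known for regulating exon inclusion in Tau transcripts. It stood at 239, 234, 302 and 240 CPM in scramble, 157, 165, 197 and 184 in the Rbmx knockdown and 119, 168, 249 and 176 in the Rbmxl1 knockdown. The Rbmx knockdown lay wholly below scramble, while replicate 3 of the Rbmxl1 knockdown reached into the scramble range. Srsf6 fell by 30.8% in the Rbmx knockdown (−0.53 ± 0.09, adjusted p = 0.00675) and by 31.5% in the Rbmxl1 knockdown (−0.55 ± 0.09, adjusted p = 0.00644). No 50-base word of its longest transcript occurs in another gene.

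Hnrnpdl (chr5:100033577-100039664), a relative of hnRNP D (AUF1), was the only one of the 26 hnRNP-type members called in either knockdown. It had 222, 215, 294 and 255 CPM in scramble, 139, 149, 206 and 202 in the Rbmx knockdown and 119.6, 172, 261 and 191 in the Rbmxl1 knockdown. The Rbmx knockdown did not overlap with scramble, and in the Rbmxl1 knockdown replicate 3 alone was inside the scramble range. It fell by 30.1% in the first (−0.52 ± 0.09, adjusted p = 0.00666) and by 26.5% in the second (−0.44 ± 0.09, adjusted p = 0.0155). The second call was lost in 4 of 16 fits that left out a library or number, with adjusted p from 0.0508 (without miScramble replicate 1) to 0.0638 (without replicate 4). Its paralog Hnrnpd had −0.30 ± 0.10 (adjusted p = 0.0643) and −0.27 ± 0.10 (adjusted p = 0.122), not called in either. DESeq2 did call Hnrnpd in the Rbmxl1 knockdown (adjusted p = 0.0471), as did edgeR with no filter on low counts (adjusted p = 0.003879).

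Promoters are shown for the SR genes called in both knockdowns, Srsf5 and Srsf6, as the regulatory sequence nearest to their start. Each is the 250 bases before the RefSeq start site in GRCm38.p6, 5′ to 3′ on the gene's strand, with matches to a GC box (GGGCGG) or an ETS motif (CCGGAAG) on either strand in capitals.
Srsf5, chr12:80945249-80945498, plus strand: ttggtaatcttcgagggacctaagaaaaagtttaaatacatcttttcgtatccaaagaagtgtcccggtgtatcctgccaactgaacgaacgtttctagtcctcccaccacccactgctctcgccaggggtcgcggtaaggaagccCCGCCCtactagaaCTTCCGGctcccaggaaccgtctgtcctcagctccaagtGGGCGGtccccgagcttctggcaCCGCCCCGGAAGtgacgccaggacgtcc
Srsf6, chr2:162931258-162931507, plus strand: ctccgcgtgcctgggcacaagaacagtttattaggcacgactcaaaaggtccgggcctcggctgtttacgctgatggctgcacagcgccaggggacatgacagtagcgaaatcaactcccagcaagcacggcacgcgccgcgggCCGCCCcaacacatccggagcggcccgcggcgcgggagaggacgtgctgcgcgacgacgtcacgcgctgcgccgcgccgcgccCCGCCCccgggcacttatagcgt

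The window of Srsf5 has 3 GC boxes and 2 ETS matches, and 1 GC box and 1 ETS match there share a base. The window of Srsf6 has 2 GC boxes. RefSeq entries were found for 37 of the 39 genes, 50 entries in all. A GC box was in 78% of these entries, against 32.7% of all 32851 promoter entries, a CCAAT box (CCAAT) in 44% against 33.8%, and an ETS match in 24% against 6.91%. An E-box (CACGTG) was in 10% against 6.02% and a TATA box (TATAAA) in 6% against 12.4%. The remaining motifs searched, on both strands as well, were a CRE (TGACGTCA) at 0% against 1.55% and the NRF1 motif at 2% against 0.782%. The 32851 entries were not limited to genes tested here, and members with several entries count more than once. These are matches of letters in the window and were not tested.

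The groups did not overlap for 3 members lower and 2 higher in the Rbmx knockdown, where 3.85% of all genes were wholly lower and 4.22% wholly higher. The lower ones were Srsf5, Srsf6 and Hnrnpdl. The higher ones were Raly, a relative of hnRNP C, at 0.15 ± 0.05 (adjusted p = 0.0817), and Pcbp2 at 0.19 ± 0.06 (adjusted p = 0.0664), and neither was called. Counted by pairs of the same number, 10 members were lower in all 4 pairs and 5 were higher in all 4, where 16.8% and 17.7% of all genes were.

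**Figure D3:**
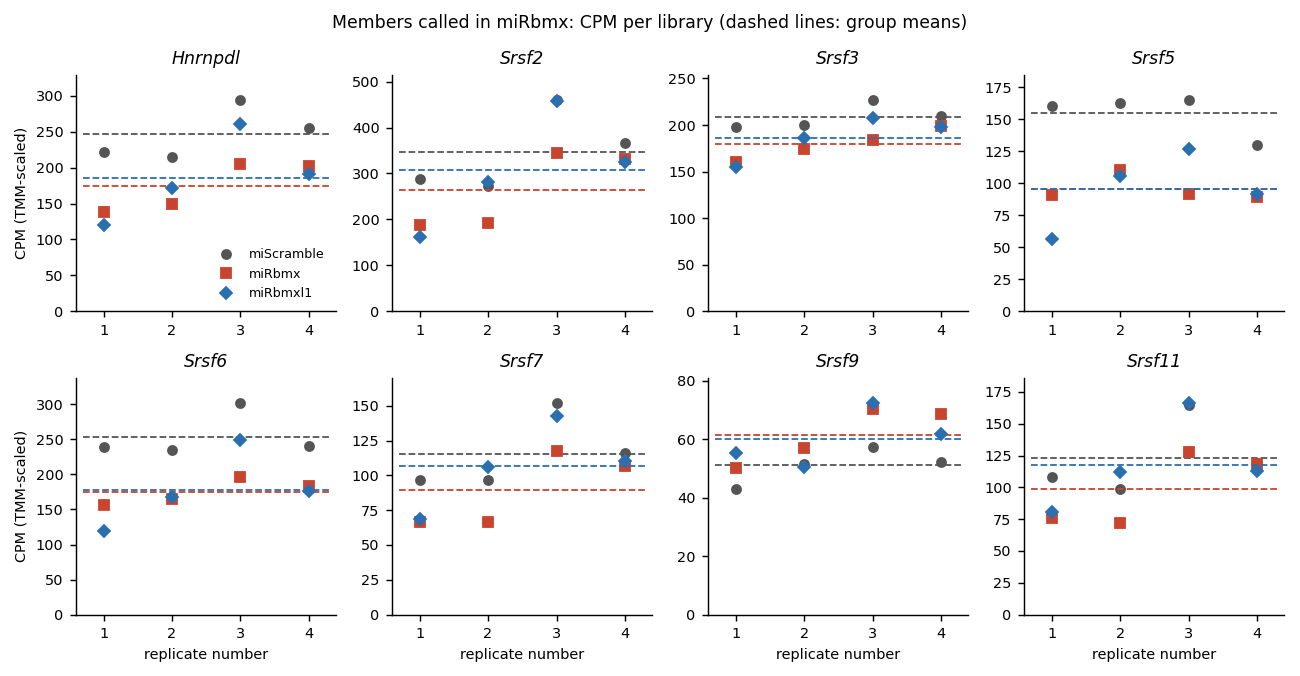
Normalised read count (CPM, linear axis) in each of the 12 libraries for the 8 genes called in the Rbmx knockdown, by replicate number, 1 point per library, with dashed lines at the group means. In Srsf5, Srsf6 and Hnrnpdl all miRbmx points lie below all miScramble points, while in Srsf2, Srsf7 and Srsf11 replicate 3 is the highest of its group in all 3 groups.

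The other 5 called SR genes had smaller changes and groups that overlapped. Srsf2 (SC35), a general splicing factor found in nuclear speckles, had 288, 272, 460.1 and 366 CPM in scramble, 189, 193, 345 and 332 in the Rbmx knockdown and 162, 282, 458 and 326 in the Rbmxl1 knockdown. Every Rbmx knockdown library was under the scramble library of its number, at −0.42 ± 0.11 (adjusted p = 0.0341) for the group, and the Rbmxl1 value of −0.23 ± 0.11 (adjusted p = 0.283) was not called. Its exons overlap 2 genes on the opposite strand over 25.3% of their length, and DESeq2 gave an adjusted p of 0.0509 in the Rbmx knockdown. Without miScramble replicate 1 the Rbmx value was −0.276 (adjusted p = 0.1549).

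Srsf7, which also acts in messenger RNA export, had 96.4, 97.0, 152 and 116 CPM in scramble and 66.8, 66.3, 117 and 107 in the Rbmx knockdown, a change of −0.39 ± 0.09 (adjusted p = 0.0192). In the Rbmxl1 knockdown it had 68.8, 106, 142 and 110.1 CPM and −0.13 ± 0.09 (adjusted p = 0.476). Srsf11 had 108, 99.0, 165 and 119 CPM in scramble, 75.7, 72.2, 128 and 118 in the Rbmx knockdown and 80.4, 112, 166 and 113 in the Rbmxl1 knockdown. It fell in the Rbmx knockdown (−0.33 ± 0.10, adjusted p = 0.0423), with replicate 4 almost level with scramble, and was not called in the other (−0.08 ± 0.10, adjusted p = 0.717). Both genes were lower in all 4 pairs of the same number in the Rbmx knockdown.

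Srsf3, the smallest SR protein and a partner of the export machinery, had the smallest decrease among the called genes. It had 198, 199.7, 227 and 209.6 CPM in scramble, 161, 174, 184 and 199 in the Rbmx knockdown and 155, 186, 207 and 198 in the Rbmxl1 knockdown. Its changes were −0.22 ± 0.06 (adjusted p = 0.0312) and, not called, −0.17 ± 0.06 (adjusted p = 0.118). Srsf9 was the exception in direction, with 43.1, 51.5, 57.4 and 52.3 CPM in scramble, 50.2, 57.0, 70.3 and 68.7 in the Rbmx knockdown and 55.4, 50.6, 72.4 and 61.7 in the Rbmxl1 knockdown. It rose by 0.26 ± 0.07 (adjusted p = 0.0297) in the Rbmx knockdown and had 0.23 ± 0.07 (adjusted p = 0.0696) in the other. For the Rbmxl1 knockdown DESeq2 did call it (adjusted p = 0.0408), as did edgeR without miRbmxl1 replicate 2 (0.30, adjusted p = 0.0212), without the whole of replicate 2 (0.32, adjusted p = 0.0292) and in replicates 3 and 4 alone (0.28, adjusted p = 0.0321). By edgeR it was not called there under RLE scaling (adjusted p = 0.0783) or with no filter on low counts (adjusted p = 0.0526). Nor was it at a mean of at least 1 CPM (adjusted p = 0.0567) or without the block (adjusted p = 0.686). Without any 1 miScramble or miRbmx library it also missed the threshold (adjusted p from 0.0633 to 0.22).

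Of the 16 fits that left out a library or a number, Srsf7 was called in 11, Srsf2 in 8, Srsf9 in 7, and Srsf3 and Srsf11 in 6 each. The members called were down to 3 without miScramble replicate 1, miScramble replicate 3, miRbmx replicate 2, miRbmx replicate 3 or the whole of replicate 3, and to 5 without miRbmx replicate 1 or the whole of replicate 1. The calls over all genes fell in the same fits, from 1467 to 515, 281, 507, 435 and 146, and to 841 and 739. The 3 uncalled SR genes were Srsf1, the founding splicing factor of the family (−0.07 ± 0.05, adjusted p = 0.393), Srsf4 (−0.08 ± 0.06, adjusted p = 0.393) and Srsf10, which represses splicing when it loses its phosphate groups (−0.15 ± 0.07, adjusted p = 0.167). Summed over the 10 SR genes, the level was 1834 ± 236 CPM (SD, n = 4) in scramble, 1509 ± 240.0 in the Rbmx knockdown and 1602 ± 355 in the Rbmxl1 knockdown, with ranges that overlap. By replicate number, it was 1662, 1659, 2160 and 1853 CPM in scramble, 1278, 1330, 1753 and 1676 in the Rbmx knockdown and 1185, 1526, 2044 and 1651 in the Rbmxl1 knockdown, so it was lower in all 4 pairs of each knockdown.

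All 8 genes called in the Rbmx knockdown have an annotated decay transcript, against 15 of the 31 members not called (48.4%). Among protein-coding genes called in that knockdown the share was 31.4%, near the 28.4% of all protein-coding genes tested. This is a description of the annotation, made after the calls were known, and 7 of the 8 are SR genes, of which 9 in 10 have such a transcript.

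Among the hnRNP A/B and D genes, hnRNP A/B (Hnrnpab) came closest to a call after Hnrnpdl, at 0.20 ± 0.06 (adjusted p = 0.0522) with all 4 pairs higher. Hnrnpa1 had 0.07 ± 0.06 (adjusted p = 0.461), its splicing partner Hnrnpa2b1 −0.16 ± 0.09 (adjusted p = 0.302), and Hnrnpa0 and Hnrnpa3 0.10 and −0.02. Hnrnpc, which binds runs of U, had 0.08 ± 0.07 (adjusted p = 0.494). In the F/H family, whose proteins bind runs of G, Hnrnph2 had −0.18 ± 0.06 (adjusted p = 0.0662) with 4 of 4 pairs lower, Hnrnph1 −0.20, Hnrnph3 −0.08 and Hnrnpf 0.04. None of these passed the test, and all 4 F/H genes had overlapping groups.

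The poly(C)-binding genes were all above 0, with Hnrnpk at 0.04 ± 0.06 (adjusted p = 0.732) and Pcbp1 at 0.05 ± 0.06 (adjusted p = 0.697) beside the Pcbp2 value above. Hnrnpl, which binds CA repeats, had 0.16 ± 0.09 (adjusted p = 0.290), its paralog Hnrnpll 0.09 and Ptbp1 0.08 ± 0.06 (adjusted p = 0.411). Ptbp2 had −0.30 ± 0.14 (adjusted p = 0.188), a value with the largest SE of all members. Hnrnpm, Hnrnpr and Syncrip (hnRNP Q) had −0.16, −0.07 and −0.10, and Hnrnpu, a scaffold protein that binds DNA and RNA, and its relatives Hnrnpul1 and Hnrnpul2 had 0.12, 0.06 and −0.03. The 31 members that were not called lay between −0.30 and 0.20.

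For the FET and TDP-43 genes, no change was detected beyond the spread between libraries. Ewsr1 had 303, 297, 356 and 295 CPM in scramble and 247, 240.4, 312 and 337 in the Rbmx knockdown, at −0.15 ± 0.09 (adjusted p = 0.330). Taf15 had −0.12 ± 0.08 (adjusted p = 0.381) and Tardbp −0.05 ± 0.06 (adjusted p = 0.649). In the Rbmxl1 knockdown these 3 had −0.10 ± 0.09, −0.07 ± 0.08 and 0.00 ± 0.06, with adjusted p of 0.6001, 0.706 and 0.990. The groups overlapped for all 3.

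In the Rbmxl1 knockdown, 3 of the 39 genes were called (7.69%), Srsf5, Srsf6 and Hnrnpdl, all lower, where 4.46% of all genes were called and 2.2% were called lower. Both knockdowns were set against the same 4 scramble libraries, so their values are not independent and are given side by side only. The SR genes gave 2 of 10 calls, the hnRNP-type genes 1 of 26, and the FET and TDP-43 genes 0 of 3. The median was −0.07 over the members and 0.01 over all genes. Without the block 0 members were called by edgeR (0.00569% of all genes), and 2 (Srsf5 and Srsf6; 5.13%, against 8.46% of all genes) had an unadjusted p under 0.05. With the replicate number, DESeq2 called 5 members and 1279 genes in all, against 783 with edgeR. Only Srsf5 had groups that did not overlap, where 2.79% of all genes were wholly lower, and 0 members were wholly higher (2.88% of all genes). In all 4 pairs of the same number 10 members were lower and 3 higher, against 12.6% and 13.4% of all genes. The 36 uncalled members lay between −0.27 and 0.23, led by Hnrnpd and Srsf9.

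The knockdowns were also compared with each other directly. No member was called, by edgeR with or without the block or by DESeq2, where 0.0114% of all genes (2) were called with the block. At an unadjusted p under 0.05, the fit with the block had 2 of the 39 genes, Srsf7 (lower in 4 of 4 pairs) and Srsf11 (lower in 3 of 4), against 5.7% of all genes, and the fit without it had 0, against 1.55%. The members' log2 differences (miRbmx minus miRbmxl1) ran from −0.26 to 0.11. The largest were Srsf7 at −0.26 ± 0.09 (adjusted p = 0.859), Srsf11 at −0.26 ± 0.10 (adjusted p = 0.859), Srsf2 at −0.19 ± 0.11 (adjusted p = 0.887), Ptbp2 at −0.13 ± 0.14 (adjusted p = 0.919) and Hnrnpab at 0.11 ± 0.06 (adjusted p = 0.881). With a library or number left out they ran from −0.346 to −0.12, −0.372 to −0.127, −0.331 to −0.061, −0.27 to −0.03 and 0.06 to 0.153, so single libraries moved these sizes. The values nearest 0 came without replicate 2 for Srsf7, Srsf11 and Srsf2, without miRbmx replicate 2 for Ptbp2 and without miRbmxl1 replicate 2 for Hnrnpab. The genes called in only the Rbmx knockdown are therefore not shown to differ between the knockdowns. A missed threshold does not show that the knockdowns act alike either.

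Genes that work on or with these proteins were read from a companion list of 32 genes, of which 29 were tested. In the Rbmx knockdown 4 of 29 (13.8%) were called, all lower, where 8.35% of all genes were called and 4.19% were called lower. They were Clk1 (−0.52 ± 0.10, adjusted p = 0.0101) and Clk4 (−0.39 ± 0.09, adjusted p = 0.0196), kinases that phosphorylate SR proteins, Tia1 (−0.40 ± 0.09, adjusted p = 0.0190), a binder of U-rich introns, and Mbnl2 (−0.22 ± 0.06, adjusted p = 0.0363), a muscleblind splicing factor. Clk1 and Clk4 were 2 of 8 among the SR kinases and importers, where Srpk1 (−0.17 ± 0.06, adjusted p = 0.0734) and Clk2 (−0.24 ± 0.11, adjusted p = 0.179) were not called. Of 8 tested relatives of the members, 0 were called. In the Rbmxl1 knockdown 1 of 29 was called (3.45%, against 4.46% of all genes), Celf1 (−0.20 ± 0.05, adjusted p = 0.0343), and Clk1 and Clk4 had −0.30 ± 0.10 (adjusted p = 0.106) and −0.32 ± 0.09 (adjusted p = 0.0587). Without the block 0 of these genes were called, with 5 and 4 of 29 at an unadjusted p under 0.05 (17.2% and 13.8%, against 10.9% and 8.46% of all genes). DESeq2 with the replicate number called 8 and 5, and 2013 and 1279 genes in all. Leaving out a library or number gave 1 to 6 calls in the Rbmx knockdown and 0 to 2 in the Rbmxl1 knockdown, with 146 to 1904 and 100 to 1032 genes called in all. Between the knockdowns 0 of the 29 were called by edgeR. Without the block 0 had an unadjusted p under 0.05, against 1.55% of all genes, and the count with the block is not given here. The largest difference with the block was that of Tia1, at −0.29 ± 0.09 (adjusted p = 0.859).

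More members differed by replicate number than by either knockdown. Its term was called for 24 of the 39 genes (61.5%), where 35.3% of all genes were called. The libraries split between replicates 1 and 2 and replicates 3 and 4, which was seen in the values and has no label. Of the 24 genes, 19 were higher in replicates 3 and 4 and 5 lower, whereas 3080 of 6206 called genes were higher over the whole table (49.6%). The median log2 difference was 0.16 over the members and 0.03 over all genes. Srsf2 differed by 0.74, Ptbp2 by 0.74, Hnrnph3 by 0.74 and Srsf7 by 0.59, and Hnrnph2 went the other way, at −0.44. The heatmap of centred levels shows this split beside the knockdown changes.

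**Figure D4:**
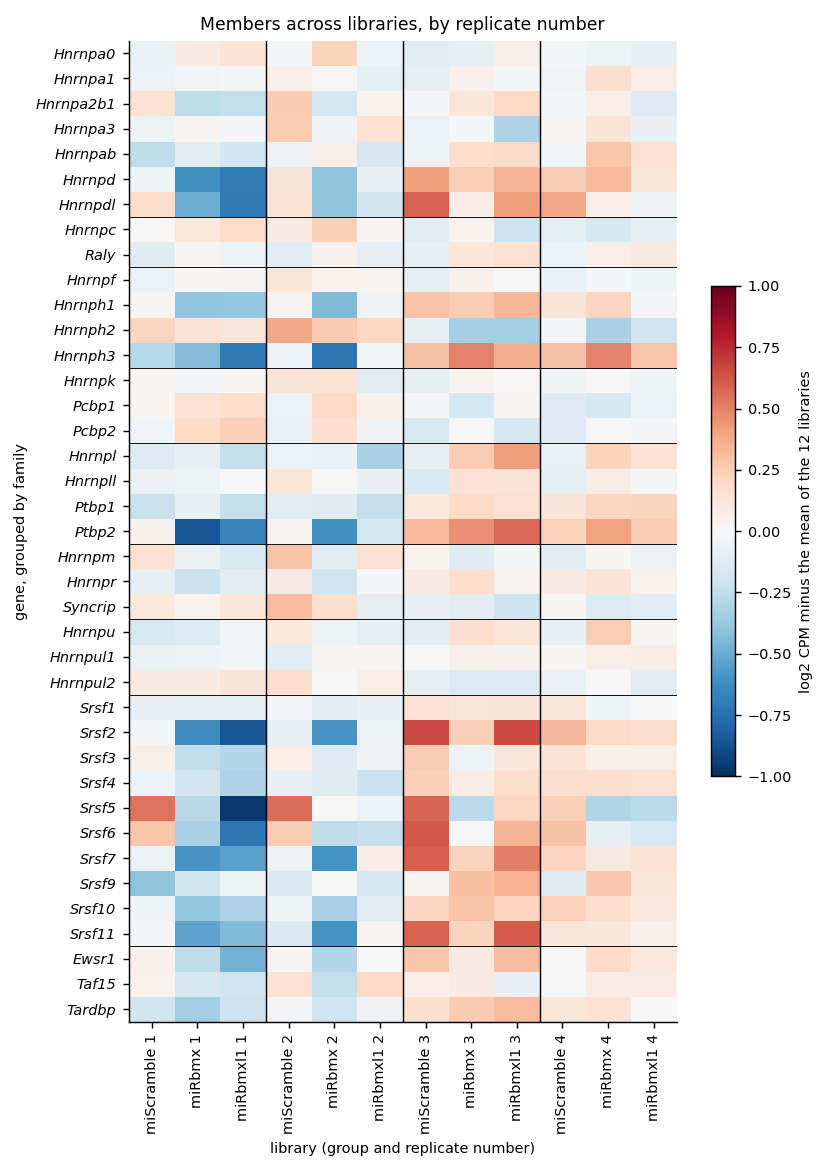
Log2 CPM of the 39 genes in the 12 libraries, centred on each gene's mean over all libraries, grouped by family and with the libraries ordered by replicate number and then by group. Srsf2, Srsf7 and Srsf11 are highest in replicate 3 of each group, and Srsf5 is higher in all 4 scramble libraries than in any knockdown library.

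Reads outside annotated features moved with the split. They came to 0.569 to 0.640 per read in genes in replicates 1 and 2 and to 0.659 to 0.741 in replicates 3 and 4, and the summed SR level was 1185 to 1662 CPM and 1651 to 2160 CPM. The reads outside features were also compared between the groups, without a test. The ratio was 0.596, 0.569, 0.659 and 0.718 in scramble replicates 1 to 4, 0.573, 0.640, 0.663 and 0.739 in the Rbmx knockdown and 0.624, 0.630, 0.741 and 0.738 in the Rbmxl1 knockdown. Paired by number with scramble, it was thus higher in 3 of 4 pairs for the Rbmx knockdown and in 4 of 4 for the Rbmxl1 knockdown, with ranges that overlap. The part of these reads in the results was not tested. Each group has 2 libraries on each side of the split, so each knockdown could be read within each side. In replicates 1 and 2 alone edgeR called 0 members, and 4 of all genes (0.023%), in the Rbmx knockdown. At an unadjusted p under 0.05 there were 19 members (48.7%, against 18.5% of all genes). Srsf5, Srsf6 and Hnrnpdl had −0.69, −0.55 and −0.60 there. In replicates 3 and 4 alone 11 members were called, 6 of them among the 8, where 10.1% of all genes were, and Srsf5, Srsf6 and Hnrnpdl had −0.70, −0.51 and −0.43. In the Rbmxl1 knockdown 0 members were called in replicates 1 and 2, where 30 of all genes (0.172%) were called. At an unadjusted p under 0.05 there were 7 members (17.9%, against 13.4% of all genes). In replicates 3 and 4 of this knockdown 5 members were called, where 5.53% of all genes were. Srsf5, Srsf6 and Hnrnpdl had −1.04, −0.73 and −0.59 in the first pair of replicates of this knockdown and −0.45, −0.37 and −0.30 in the second. Srsf2, Srsf7 and Srsf11 had −0.55, −0.53 and −0.48 in replicates 1 and 2 and −0.28, −0.26 and −0.19 in replicates 3 and 4 of the Rbmx knockdown. All 8 genes kept their direction on both sides. A test of the difference between sides, added after the data were seen, called 0 genes in either knockdown. At an unadjusted p under 0.05 it had 14 of the 39 members in the Rbmx knockdown and 8 in the Rbmxl1 knockdown, and 1944 and 1468 of all 17569 genes.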

How the data were processed

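Raw counts per Ensembl gene, 1 file per library, were deposited by the authors. Per the submitters' processing notes, STAR 2.5.3a, HTSeq 0.6.1p1, DESeq2 1.16.1 and R 3.3.2 were used with mm10. Each deposited count file ends in 5 rows that name no gene, 52.3% to 57.4% of its total, left out here. Names, exon lengths and decay transcripts came from GENCODE M21 (55141 identifiers matched, 260 did not), and promoter windows from RefSeq. Analysis used edgeR 4.0.16 in R 4.3.3: filterByExpr (minimum count 10, total 15), TMM scaling, and quasi-likelihood F-tests on all 12 libraries with group and replicate number as terms. Calls needed an adjusted p under 0.05 by Benjamini-Hochberg over 17569 genes. SE comes from the fold change and F. CPM are TMM-scaled.

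Whether numbers pair the samples was checked on log2 CPM deviations from the group means (prior count 2): r was 0.20 to 0.52 in the 12 pairs of libraries of 1 number, 0.10 to 0.43 in 12 pairs of other numbers on the same side of the split, and −0.57 to −0.13 in 24 pairs across it. The block used the replicate numbers of the labels. The first 2 ranges overlap widely, so these values show the split but do not establish a pairing by number. Common dispersion was 0.00929 with the block and 0.0362 without.

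Members and lists were chosen with earlier results of these data known. All members could be named; values in every library were given for called members, and companion genes were named when called. Srpk1 and Clk2 were named after their values were seen. Alternatives were RLE scaling, DESeq2 1.42.0, other filters, no block, each side of the split, and leaving out each library and number.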

Additional observations from a re-analysis of the deposited data

Results flagged for a closer look

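In 6 of the 117 sets of 4 libraries (39 genes in 3 groups), 1 library stood far from the other 3 relative to the range of the set. Chance alone flags about 1 in 20 such sets. Srsf5 had 130.1 CPM in miScramble replicate 4, below the others at 161 to 165, and 111 CPM in miRbmx replicate 2, above the others at 89.7 to 91.5. Its log2 fold change in the Rbmx knockdown was −0.75 without the first library and −0.71 without the second. Srsf6 had 302 CPM in miScramble replicate 3, above the others at 234 to 240.0, and −0.56 in the Rbmx knockdown without that library. Ewsr1 had 356 CPM in the same library, above 295 to 303. Hnrnpf had 160.2 CPM in miScramble replicate 2, above 139 to 142, and Hnrnpr had 173 CPM in miScramble replicate 1, below 194 to 195.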

How the results depend on the processing

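The 11 called fold changes of members kept their direction under all 23 alternatives tried. Without the replicate block, 0 members and 0 companion genes were called in both knockdowns. The same 4 counts were 0 in replicates 1 and 2 alone, where 4 (0.023%) and 30 (0.172%) of all genes were called. In replicates 3 and 4 alone, 11 members and 2 companion genes were called in the Rbmx knockdown and 5 and 0 in the Rbmxl1 knockdown, and the members' median in the Rbmx knockdown turned to 0.023 from −0.074. The causes were not tested. DESeq2 called 8 companion genes in the Rbmx knockdown, and 5 members and 5 companion genes in the Rbmxl1 knockdown. With no filter on low counts, 13 members and 7 companion genes were called in the first and 5 and 5 in the second, with 2085 and 1243 genes in all, against 1467 and 783. Companion genes called in the Rbmxl1 knockdown were 2 under RLE scaling and 3 at a mean of at least 1 CPM, with 743 and 885 genes in all. Leaving out a library or number gave 3 to 12 members and 1 to 6 companion genes in the Rbmx knockdown, 2 to 4 and 0 to 2 in the Rbmxl1 knockdown, and 0 members between the knockdowns. Genes called in all were then 146 to 1904, 100 to 1032 and 2 to 7. The members' medians then ran from −0.098 to −0.013 and from −0.119 to −0.019. Members called for replicate number were 18 to 26 over the alternatives, with 4777 to 6894 genes in all. Reads with several alignments, which were not counted, limit members with near copies.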

Other observations

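Some uncalled members had knockdown values of opposite sign on the 2 sides of the replicate split. Ptbp2, the neuronal PTB paralog, had 64.3, 63.7, 77.8 and 73.1 CPM in scramble, 34.6, 41.1, 85.8 and 82.5 in the Rbmx knockdown and 39.6, 55.6, 92.4 and 74.3 in the Rbmxl1 knockdown, replicates 1 to 4. In replicates 1 and 2 both knockdowns were below scramble, and in replicates 3 and 4 both were above it. The difference between sides was 0.93 on the log2 scale in the Rbmx knockdown, with an adjusted p of 0.0547 in edgeR's quasi-likelihood test over all genes, the lowest adjusted p of any member, and 0.58 in the Rbmxl1 knockdown (adjusted p = 0.297). Hnrnpl had 447, 469.9, 463 and 468 CPM in scramble and 414, 391, 654 and 540.4 in the Rbmxl1 knockdown, where the difference between sides was 0.54 (adjusted p = 0.238). Hnrnpa2b1 had 233, 251, 207 and 208 CPM in scramble and 176, 186, 227 and 220.4 in the Rbmx knockdown, with a difference of 0.53 (adjusted p = 0.241).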
